A study of Mus musculus with 20 samples.

Results

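Expression of 9 genes that sense foreign nucleic acid or relay its detection, Ifih1, Ddx58, Dhx58, Zbp1, Tlr3, Tlr7, Tlr9, Mavs and Myd88, was examined in mouse tumors injected with adenoviral vectors. The genes were chosen by name, as RNA and DNA sensors and their adaptors, from the 19938 genes measured, and each was read by 1 array probe set. Earlier results of these data were known when they were chosen. The shares of all genes printed beside their counts are therefore not an independent check. The tumors were implants of LLC-1, a Lewis lung carcinoma cell line, in C57Bl/6 mice. They received adenovirus coding for IFNbeta, for p19Arf, for both together, or for EGFP as the control, with 5 arrays per group and 20 in all. Each tumor was injected 5 times, 48 h apart, with 25 µl of virus. The labels give 1 viral load, 8 as a log10 value, for all groups and do not say how it was divided when both vectors were given. All 4 groups thus carried an adenoviral vector, and no tumor without virus was analysed here. Neither the promoters that drive the vector genes nor the ages of the mice are stated in the labels.

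Cells recognise viral nucleic acid with receptors in the cytosol and in endosomes. RIG-I-like receptors are helicases that bind viral RNA in the cytosol and signal through Mavs on the mitochondrial surface, while endosomal Toll-like receptors signal through Ticam1 (Tlr3) or Myd88 (Tlr7 and Tlr9). Both routes lead to interferon genes, and type I interferon in turn raises the transcription of several of the receptors, so that the pathway feeds back on itself. In a tumor these genes are expressed by cancer cells and by infiltrating leukocytes, and in such bulk samples fewer cells of a type and less RNA per cell cannot be told apart.

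The promoters of Ifih1 and Ddx58 are shown because their levels moved together between arrays, and those of the adaptors Myd88 and Mavs beside them. Each of these genes had its highest mean in the IFNbeta tumors, as did all of the 9 but Tlr9. For Mavs and Myd88 that mean was above eGFP by only 0.04 (SE 0.13) and 0.06 (SE 0.11). Tlr3, whose promoter is not shown, moved with Mavs at least as closely as Ifih1 with Ddx58. RefSeq sequences (GRCm38.p6, 250 bases before to 50 after the gene start, 5′ to 3′ in the direction of the gene) were at hand for 6 of the 9 genes. Capitals mark matches on either strand to GAAANNGAAA, the repeated core of the interferon-stimulated response element, or to GAAANGAAA, the same repeat with 1 base between. The motifs were written down after the sequences had been seen, and a stretch of repeated GAAA can match both.
Ifih1, chr2:62646206-62646505, - strand: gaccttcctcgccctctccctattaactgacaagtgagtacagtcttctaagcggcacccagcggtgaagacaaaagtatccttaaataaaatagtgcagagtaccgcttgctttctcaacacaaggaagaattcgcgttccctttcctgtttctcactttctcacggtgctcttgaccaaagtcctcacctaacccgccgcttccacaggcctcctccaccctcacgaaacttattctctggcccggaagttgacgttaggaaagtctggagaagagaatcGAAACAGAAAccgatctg
Ddx58, chr4:40239776-40240075, - strand: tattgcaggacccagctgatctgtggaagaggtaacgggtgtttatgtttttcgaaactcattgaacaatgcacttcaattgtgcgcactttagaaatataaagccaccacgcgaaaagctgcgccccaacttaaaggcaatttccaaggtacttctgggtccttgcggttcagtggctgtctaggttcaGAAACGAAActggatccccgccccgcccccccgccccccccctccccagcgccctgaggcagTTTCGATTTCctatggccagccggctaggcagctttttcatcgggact
Myd88, chr9:119339969-119340268, - strand: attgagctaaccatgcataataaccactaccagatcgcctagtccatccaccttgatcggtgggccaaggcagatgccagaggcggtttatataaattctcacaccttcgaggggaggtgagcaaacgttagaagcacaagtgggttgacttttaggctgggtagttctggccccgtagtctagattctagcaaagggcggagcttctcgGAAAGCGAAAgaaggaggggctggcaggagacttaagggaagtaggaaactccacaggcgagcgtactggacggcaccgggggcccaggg
Mavs, chr2:131233813-131234112, + strand: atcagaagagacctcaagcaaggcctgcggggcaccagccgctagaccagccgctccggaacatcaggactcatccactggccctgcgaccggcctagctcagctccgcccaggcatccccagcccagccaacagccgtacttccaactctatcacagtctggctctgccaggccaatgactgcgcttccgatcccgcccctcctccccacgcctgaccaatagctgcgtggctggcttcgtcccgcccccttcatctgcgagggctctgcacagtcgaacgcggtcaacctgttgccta
The Ifih1 match, GAAACAGAAA, lay at bases 33 to 42 of the gene. Ddx58 held GAAACGAAA from 60 to 52 bases before the start and, on the other strand, TTTCGATTTC at bases 3 to 12. Myd88 held GAAAGCGAAA from 40 to 31 bases before the start. Mavs, Tlr3 and Tlr9 held neither motif in this window. Among 32851 promoters of the same length, 3.44% held GAAANNGAAA, 3.17% held GAAANGAAA and 6.27% held at least 1 of them.

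Array medians ran from 7.49 to 7.61 on the log2 scale. The spread of an array, the standard deviation of its log2 values, ran from 1.99 to 2.15 and was lowest on replicate 4 of p19Arf+IFNbeta. A score of 7 skin epidermis markers, their mean log2 value, reached 8.98 for IFNbeta replicate 3 and ran from 6.30 to 7.25 on the other 19 arrays. The values carry no detection call, so no marker of another cell type can be called absent. The labels do not say whether each array was a separate mouse, so the p-values measure the spread between these samples.

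All of the 9 genes but Tlr9 had their highest mean in the IFNbeta tumors. Ddx58 and Dhx58 lay above the eGFP tumors without overlap, against 0.552% of all genes. After quantile normalization or median centring only Ddx58 did. Zbp1, Tlr9 and Dhx58 had a higher mean than eGFP in both groups that received IFNbeta, Dhx58 by only 0.04 in p19Arf+IFNbeta. In the p19Arf+IFNbeta tumors Ifih1 and Ddx58 were close to the p19Arf level and below every IFNbeta array, as were 0.782% of all genes. Tlr3, Tlr7 and Mavs followed the spread of the array most closely over all 20 arrays (r from 0.877 to 0.928). Ddx58, Ifih1 and Myd88 also followed it (r = 0.768, 0.678 and 0.676). The share of all genes that did so was not counted. By limma with adjustment over all genes, 0 of the 9 passed in any comparison, so none of the differences is called a change. The SE of a gene's difference is the same for each pair of vector groups in the fit, and is given where the gene is first compared.

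**Figure D1:**
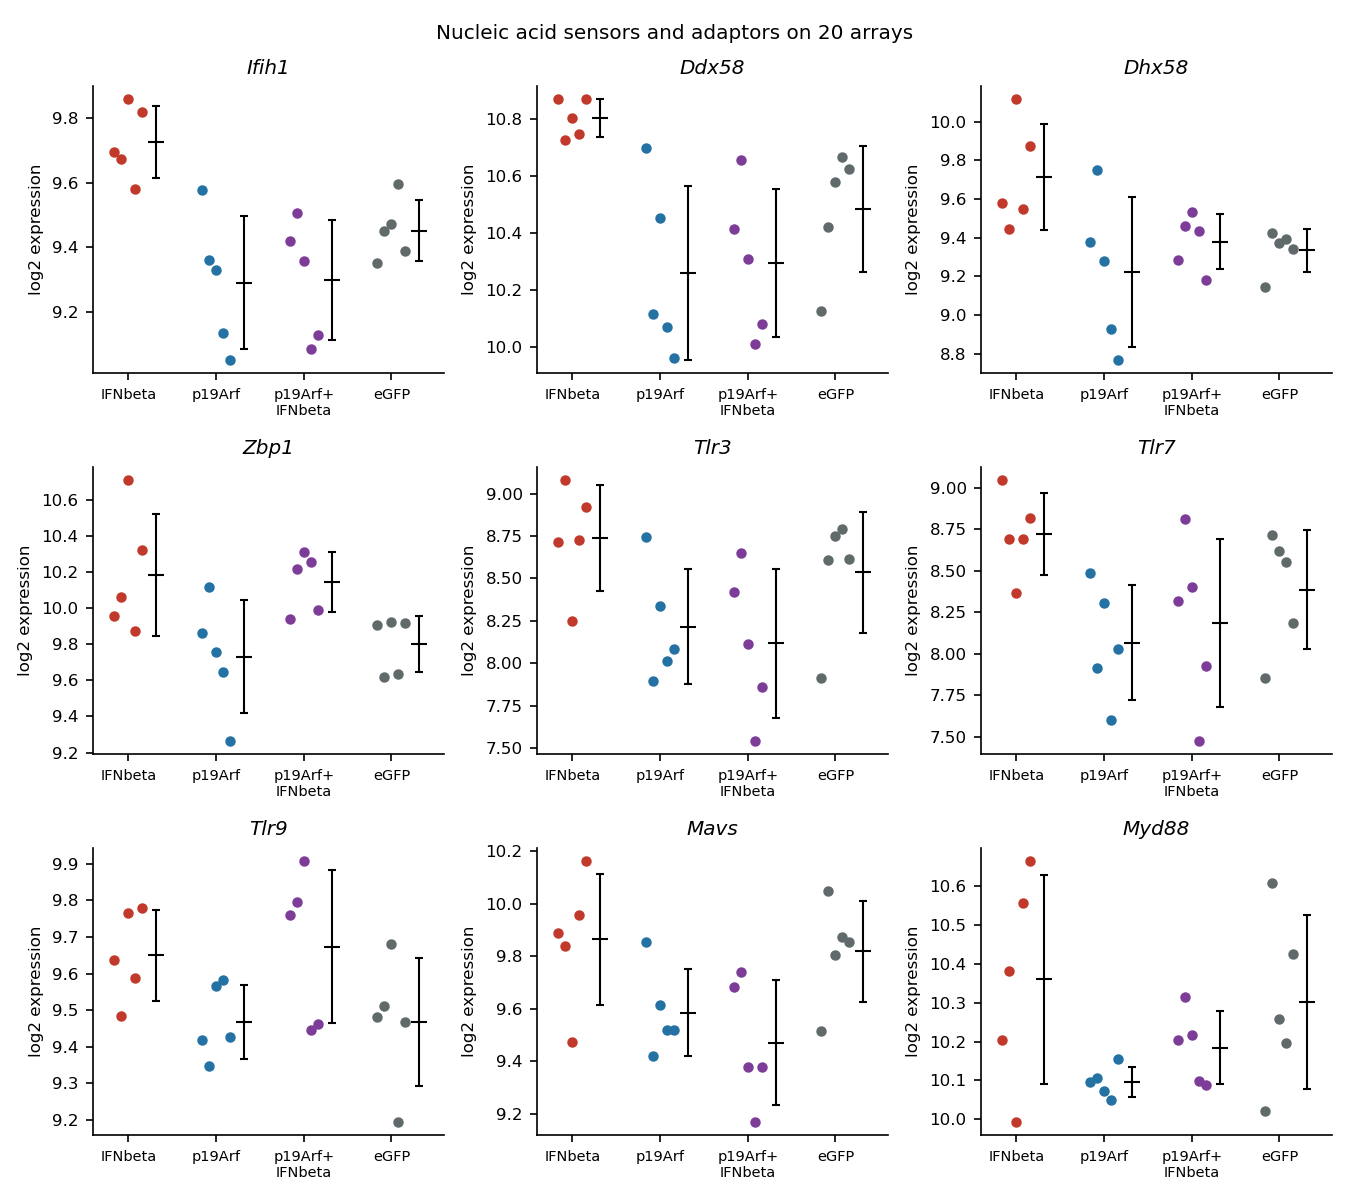
Log2 expression (vertical axes) of the 9 genes on each array (points), by vector group (horizontal axes), with the mean and SD of the 5 arrays beside the points. All 5 IFNbeta points of Ddx58 lie above all p19Arf, p19Arf+IFNbeta and eGFP points.

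Ddx58 encodes RIG-I, which binds RNA with a triphosphate end. Its log2 expression was 10.87, 10.73, 10.80, 10.75 and 10.87 on the IFNbeta arrays, 10.70, 10.12, 10.45, 10.07 and 9.96 on the p19Arf arrays, 10.42, 10.66, 10.31, 10.01 and 10.08 on the p19Arf+IFNbeta arrays, and 10.13, 10.42, 10.58, 10.67 and 10.63 on the eGFP arrays. The IFNbeta arrays lay within a narrow band above every other array, and the other 3 groups overlapped widely. The means were 10.80 ± 0.07 in IFNbeta, 10.26 ± 0.31 in p19Arf, 10.30 ± 0.26 in p19Arf+IFNbeta and 10.48 ± 0.22 in eGFP (SD, n = 5 each). Its IFNbeta minus eGFP difference was 0.32 (SE 0.14, 95% interval 0.03 to 0.61), a fold of 1.25 with an adjusted p close to 1 (0.9998).

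Ifih1 encodes MDA5, which binds long RNA duplexes. Its log2 expression was 9.69, 9.67, 9.86, 9.58 and 9.82 on the IFNbeta arrays, 9.58, 9.36, 9.33, 9.13 and 9.05 on the p19Arf arrays, 9.42, 9.51, 9.36, 9.08 and 9.13 on the p19Arf+IFNbeta arrays, and 9.35, 9.45, 9.47, 9.60 and 9.39 on the eGFP arrays. The eGFP range was exceeded by 4 IFNbeta arrays, while replicate 4 at 9.58 stood just under the highest eGFP array. The mean was 9.73 ± 0.11 in IFNbeta and 9.45 ± 0.09 in eGFP (SD, n = 5 each). They differed by 0.27 (SE 0.10, 95% interval 0.06 to 0.49, limma adjusted p 0.9998).

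Dhx58 encodes LGP2, a relative of RIG-I and MDA5 without their signalling domains that tunes their activity. Its log2 expression was 9.58, 9.45, 10.12, 9.55 and 9.88 on the IFNbeta arrays, 9.38, 9.75, 9.28, 8.93 and 8.77 on the p19Arf arrays, 9.29, 9.46, 9.53, 9.44 and 9.18 on the p19Arf+IFNbeta arrays, and 9.14, 9.42, 9.38, 9.40 and 9.34 on the eGFP arrays. The lowest IFNbeta array stood just above the highest eGFP array, and the p19Arf arrays spanned the widest range of the 4 groups. The IFNbeta minus eGFP difference was 0.38 (SE 0.15, 95% interval 0.07 to 0.69), a fold of 1.30 with adjusted p 0.9998, and leaving out IFNbeta replicate 3, whose epidermis score was high, gave 0.28.

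Zbp1 binds nucleic acid in the left-handed Z form and can start necroptosis through Ripk3. Its log2 expression was 9.96, 10.06, 10.71, 9.87 and 10.33 on the IFNbeta arrays, 9.86, 10.12, 9.76, 9.65 and 9.26 on the p19Arf arrays, 9.94, 10.22, 10.31, 10.26 and 9.99 on the p19Arf+IFNbeta arrays, and 9.91, 9.62, 9.92, 9.64 and 9.92 on the eGFP arrays. All 5 p19Arf+IFNbeta arrays lay above all 5 eGFP arrays, the lowest by a small margin, and 4 of the 5 IFNbeta arrays did. The difference from eGFP was 0.38 (SE 0.15, 95% interval 0.07 to 0.70, adjusted p 0.9998) in IFNbeta and 0.34 (SE 0.15, 95% interval 0.03 to 0.66, adjusted p 0.259) in p19Arf+IFNbeta. Without IFNbeta replicate 3, where Zbp1 was highest of all arrays, the IFNbeta difference was 0.25.

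In IFNbeta against eGFP all 9 genes had a higher mean, with a median difference of 0.27, where 44.2% of all genes had a higher mean and the median over all genes was -0.02. The 9 genes stood at percentiles 57.7 to 92.0 of mean level. Without the 25% of genes of lowest mean, the median over genes was 0.001. The share of genes with a higher mean was not counted under that filter. The number past an adjusted p of 0.05 was 0 of 9, against a background of 0% of genes, and limma with trended, robust moderation or array weights also gave 0 of 9. At an unadjusted p under 0.05 stood 4 of the 9 (Ifih1, Ddx58, Dhx58 and Zbp1), against 2.79% of all genes. Of the 9, 2 lay above eGFP without overlap, against 0.552% of all genes, and without IFNbeta replicate 4 this number was 4, Ifih1 and Zbp1 being added, against 0.727%. It was 1 (Ddx58) after quantile normalization, against 0.466%, or median centring, against 0.517%.

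**Figure D2:**
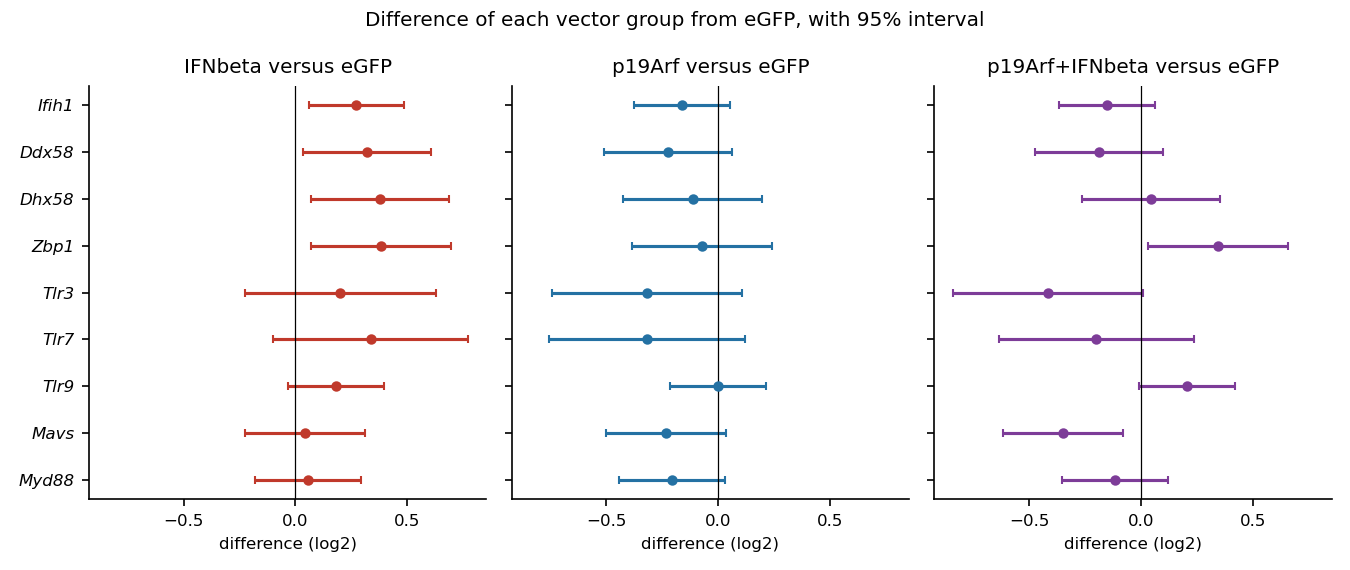
Difference in log2 expression from eGFP (horizontal axes) for each gene (rows) in the 3 other vector groups (panels), with bars for the 95% interval of the limma fit. The intervals of Ifih1, Ddx58, Dhx58 and Zbp1 in IFNbeta and of Zbp1 and Mavs in p19Arf+IFNbeta leave out 0, before any adjustment over genes.

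Tlr3 binds RNA duplexes in endosomes. It ran from 8.25 to 9.08 in IFNbeta, 7.90 to 8.75 in p19Arf, 7.54 to 8.65 in p19Arf+IFNbeta and 7.91 to 8.79 in eGFP, with means of 8.74 ± 0.31, 8.22 ± 0.34, 8.12 ± 0.44 and 8.54 ± 0.36 for these groups in turn (SD, n = 5 each). All 4 groups overlapped. The difference from eGFP was 0.20 (SE 0.21, 95% interval -0.22 to 0.63) in IFNbeta tumors, -0.32 in p19Arf tumors (SE 0.21, 95% interval -0.75 to 0.11) and -0.42 (SE 0.21, 95% interval -0.84 to 0.01) in p19Arf+IFNbeta tumors. Once the array spread entered the fit, the values were 0.020 for p19Arf and -0.043 for p19Arf+IFNbeta (SE 0.10 and 0.11).

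Tlr7 binds single-stranded RNA and is a receptor of macrophages, B cells and plasmacytoid dendritic cells. It ran from 8.37 to 9.05 in IFNbeta, 7.60 to 8.48 in p19Arf, 7.47 to 8.81 in p19Arf+IFNbeta and 7.85 to 8.72 in eGFP. The p19Arf+IFNbeta tumors had the widest scatter of Tlr7, with an SD of 0.51, which was also the largest SD among the 9 genes in any group. The difference from eGFP was 0.34 (SE 0.21, 95% interval -0.10 to 0.77) in IFNbeta tumors, -0.32 in p19Arf tumors and -0.20 in p19Arf+IFNbeta tumors. The lower means of both p19Arf groups turned sign when the array spread entered the fit, to 0.019 in p19Arf and 0.17 in p19Arf+IFNbeta.

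Tlr9, the receptor for DNA with unmethylated CpG, such as the genome of an adenovirus, had the smallest range of group means, 0.21. Its log2 expression was 9.64, 9.48, 9.77, 9.59 and 9.78 on the IFNbeta arrays, 9.42, 9.35, 9.57, 9.58 and 9.43 on the p19Arf arrays, 9.76, 9.79, 9.91, 9.45 and 9.46 on the p19Arf+IFNbeta arrays, and 9.48, 9.51, 9.68, 9.19 and 9.47 on the eGFP arrays. Each group overlapped each other, and 3 of the p19Arf+IFNbeta arrays stood above all eGFP arrays. Its highest mean was in p19Arf+IFNbeta, unlike the other 8 genes, which were highest in IFNbeta. The difference from eGFP was 0.18 (SE 0.10, 95% interval -0.03 to 0.40) in IFNbeta tumors, 0.0013 (SE 0.10, 95% interval -0.21 to 0.22) in p19Arf tumors and 0.21 (SE 0.10, 95% interval -0.01 to 0.42) in p19Arf+IFNbeta tumors.

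Mavs, the adaptor of RIG-I and MDA5, ran from 9.47 to 10.16 in IFNbeta, 9.42 to 9.86 in p19Arf, 9.17 to 9.74 in p19Arf+IFNbeta and 9.52 to 10.05 in eGFP. Of the p19Arf+IFNbeta arrays 3 lay below all eGFP arrays, and without eGFP replicate 1, the lowest eGFP array, all 5 did. Leaving out an array can only add genes without overlap, and their share of all genes was not counted for that removal. The difference was -0.35 in p19Arf+IFNbeta against eGFP (SE 0.13, 95% interval -0.62 to -0.08, adjusted p 0.234), -0.23 in p19Arf and 0.04 in IFNbeta, with the same SE. Once the array spread entered the fit, the p19Arf+IFNbeta difference was -0.14 and the p19Arf difference -0.041 (SE 0.08 each).

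Myd88, the adaptor of Tlr7, Tlr9 and the interleukin-1 receptor, ran from 9.99 to 10.66 in IFNbeta, 10.05 to 10.15 in p19Arf, 10.09 to 10.31 in p19Arf+IFNbeta and 10.02 to 10.61 in eGFP. The p19Arf arrays were closely packed (SD 0.04, n = 5) and lay inside the range of the eGFP arrays. The difference from eGFP was 0.06 (SE 0.11, 95% interval -0.18 to 0.30) in IFNbeta tumors, -0.21 (SE 0.11, 95% interval -0.44 to 0.03) in p19Arf tumors and -0.12 in p19Arf+IFNbeta tumors, or 0.0040 after quantile normalization.

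In p19Arf against eGFP 8 of the 9 genes had a lower mean, Tlr9 standing level, with a median difference of -0.21, while 54.4% of all genes had a higher mean. The median over all genes was 0.018, or -0.016 without the 25% of genes of lowest mean. The difference was -0.16 for Ifih1, -0.22 for Ddx58, -0.11 for Dhx58 and -0.07 for Zbp1, the last being 0.0016 after quantile normalization. Once the array spread entered the fit, they were -0.066 for Ifih1, -0.051 for Ddx58, -0.11 for Dhx58 and -0.15 for Zbp1, and that of Myd88 was -0.098. The number past an adjusted p of 0.05 was 0 of 9 (background 0%, smallest adjusted p 0.661), and 0 of 9 stood at an unadjusted p under 0.05, against 7.25% of all genes. In p19Arf+IFNbeta against eGFP 3 of 9 had a higher mean (Dhx58, Zbp1 and Tlr9, Dhx58 at 0.04), with a median of -0.15, while 55% of all genes were higher. There the median over all genes was 0.021, or -0.0042 without the 25% of genes of lowest mean. Ifih1 differed by -0.15 and Ddx58 by -0.19, or -0.048 and 0.0012 once the array spread entered the fit. Again 0 of 9 passed (background 0%), 2 stood at an unadjusted p under 0.05 (Zbp1 and Mavs), against 17.6% of all genes, and 1, Zbp1, lay above eGFP without overlap, against 0.782% of all genes. After quantile normalization or median centring that number was 0. These 3 comparisons share the eGFP arrays.

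The comparison of p19Arf+IFNbeta with IFNbeta set tumors given both vectors against tumors given the interferon vector alone. If the common load was divided between the vectors, less IFNbeta vector and the presence of p19Arf cannot be told apart in this comparison or in the interaction. All 5 p19Arf+IFNbeta arrays of Ifih1, the highest at 9.51, lay below all 5 IFNbeta arrays, the lowest at 9.58, and for Ddx58 the corresponding values were 10.66 and 10.73. The differences were -0.43 (SE 0.10) for Ifih1 and -0.51 (SE 0.14) for Ddx58, and also -0.34 for Dhx58, -0.62 (SE 0.21) for Tlr3, -0.54 for Tlr7, -0.39 (SE 0.13) for Mavs and -0.18 for Myd88. Zbp1 and Tlr9 differed by -0.04 (SE 0.15, 95% interval -0.36 to 0.27) and 0.02 (SE 0.10, 95% interval -0.19 to 0.24), and the sign turned for Zbp1 after quantile normalization (0.088) and for Tlr9 after median centring (-0.019).

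In that comparison 6 of 9 genes stood at an unadjusted p under 0.05, against 25.8% of all genes, 0 of 9 passed after adjustment over all genes (background 0%, with 0.1495 the smallest adjusted p of the 9), and 2 lay below without overlap, against 0.782%. Without IFNbeta replicate 3 the number past the adjusted threshold was 4, Ifih1 (adjusted p 0.0383), Ddx58 (0.0394), Tlr3 (0.0383) and Mavs (0.0377), where 11.8% of all genes passed. The number without overlap was also 4, where 9.62% of all genes lay lower without overlap. Array weights called the same 4 genes at adjusted p-values of 0.0395 to 0.0422, where 8.68% of all genes passed. Once the array spread entered the fit, the differences of Tlr3, Tlr7 and Mavs were -0.21, -0.13 and -0.16, and those of Ifih1 and Ddx58 were -0.31 and -0.30. The limma adjusted p was then 0.931 for Ifih1 and for Ddx58 and 0.978 for Tlr3. The spread ran from 1.99 to 2.12 on the p19Arf+IFNbeta arrays and from 2.04 to 2.14 on the IFNbeta arrays.

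**Figure D3:**
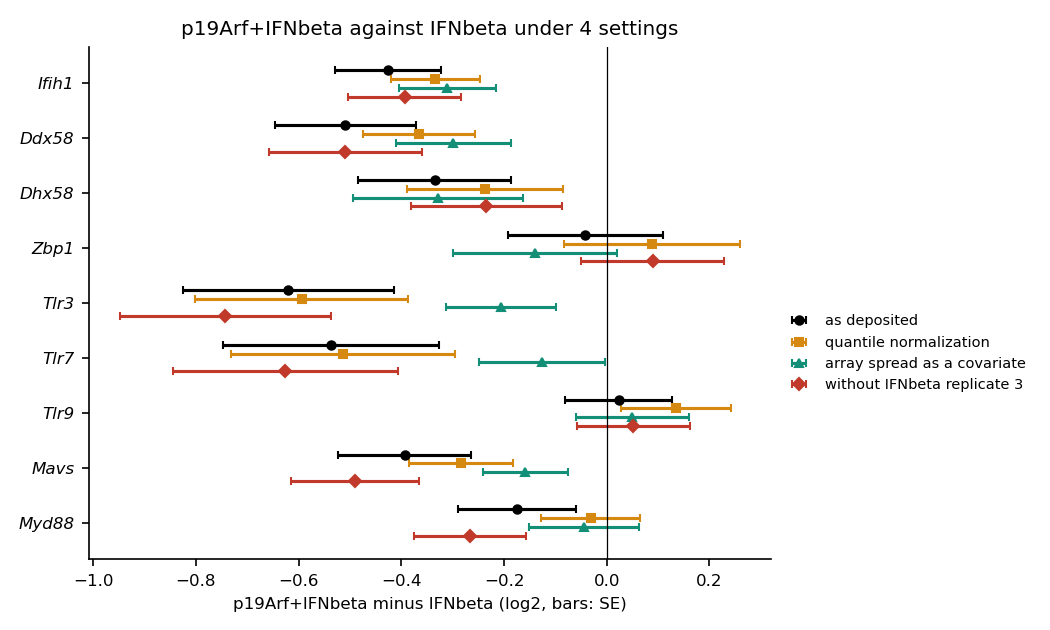
Difference in log2 expression between p19Arf+IFNbeta and IFNbeta (horizontal axis) for each gene (rows) as deposited, after quantile normalization, with the array spread as a covariate and without IFNbeta replicate 3 (markers, bars for the SE). With the covariate Tlr3 stands at -0.21 in place of -0.62, and Ifih1 at -0.31 in place of -0.43.

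Against p19Arf, the p19Arf+IFNbeta tumors had Zbp1 at 0.41 (SE 0.15, 95% interval 0.10 to 0.73, adjusted p 0.998), the one of the 9 genes at an unadjusted p under 0.05, where 3.07% of all genes stood, and 0 of 9 passed (background 0%). Tlr9 differed by 0.21 (SE 0.10), Ifih1 by 0.01 (SE 0.10) and Ddx58 by 0.03 (SE 0.14). Between the single vectors, IFNbeta minus p19Arf, the differences ran from 0.18 for Tlr9 to 0.66 for Tlr7, with 8 of 9 genes at an unadjusted p under 0.05, against 20.9% of all genes. Ifih1 (0.43, SE 0.10, adjusted p 0.155) and Ddx58 (0.54, SE 0.14, adjusted p 0.170) lay above p19Arf without overlap, against 0.757% of all genes. None of the 9 passed in the limma fit, where 0.0251% of genes did, but Ifih1 and Ddx58 did without p19Arf replicate 1 (adjusted p 0.0465 each), where 0.14% of all genes passed, and all but Tlr9 did with array weights, where 22.5% of all genes passed. The number without overlap was 4 without IFNbeta replicate 3 (Tlr7 and Myd88 added), against 6.43% of all genes, or without p19Arf replicate 2 (Dhx58 and Zbp1 added), against 1.95%. Once the array spread entered the fit, 0 of 9 passed, and the differences were 0.28 for Tlr7, 0.14 for Tlr3, 0.064 for Mavs, 0.14 for Myd88, 0.33 for Ifih1 and 0.35 for Ddx58, in place of 0.66, 0.52, 0.28, 0.26, 0.43 and 0.54.

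Taking both IFNbeta vectors against both vectors without it, 10 arrays against 10, Zbp1 differed by 0.40 (SE 0.11, adjusted p 0.685), Dhx58 by 0.27 (SE 0.11) and Tlr9 by 0.19 (SE 0.07). These 3 of the 9 stood at an unadjusted p under 0.05, against 4.92% of all genes, and 0 of 9 passed (background 0%). The interaction, which asks whether the effects of the 2 vectors add on the log2 scale, ran from -0.30 for Tlr3 (SE 0.29) to 0.03 for Zbp1 (SE 0.21), with an adjusted p of 1 for each gene (0 of 9, background 0%). At an unadjusted p under 0.05 stood 0 of 9, against 162 positive and 98 negative values among all 19938 genes. For Ifih1 the interaction was -0.27 (SE 0.15) and for Ddx58 -0.28 (SE 0.20).

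The genes fell into different patterns between arrays. Each gene was set against the score of a type I interferon response list and against the array spread, 18 relations in all. The score is the mean log2 value of 23 interferon-induced genes, with none of the 9 among them. The r, rho and permutation p-values are pooled over all 20 arrays, so differences between the vector groups enter them. The r values given after subtraction of the group means carry no p-value. The share of all genes that follow the score or the array spread as closely was not counted. The relations therefore do not show whether the sensors and adaptors differ from other genes in this. The interferon score averaged 9.94 ± 0.30 in IFNbeta, 9.50 ± 0.24 in p19Arf, 9.59 ± 0.14 in p19Arf+IFNbeta and 9.53 ± 0.05 in eGFP (SD, n = 5 each). Of the 23 genes, 23, 8 and 13 had a higher mean than in eGFP in IFNbeta, p19Arf and p19Arf+IFNbeta, with median differences of 0.42, -0.02 and 0.06. Over 20 arrays Dhx58 followed it at r = 0.929 (permutation p = 1e-05, the smallest that the resampling gives, adjusted over the 18 relations 3.6e-05; Spearman rho 0.91, permutation p = 1e-05, adjusted 6e-05). For Zbp1 r was 0.834 (permutation p = 1e-05, adjusted 3.6e-05; rho 0.713, permutation p = 0.00064, adjusted 0.00165), for Ifih1 0.788 (permutation p = 3e-05, adjusted 9e-05; rho 0.686, permutation p = 0.00108, adjusted 0.00194) and for Ddx58 0.642 (permutation p = 0.00062, adjusted 0.00139; rho 0.693, permutation p = 0.00091, adjusted 0.00194).

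After subtraction of the group means r was 0.891 for Dhx58, 0.889 for Zbp1, 0.665 for Ifih1 and 0.388 for Ddx58. With the 2 arrays most distant from the median score left out, IFNbeta replicate 3 and p19Arf replicate 5, the pooled r was 0.893, 0.646, 0.714 and 0.612 for these genes in that order. For Tlr3, Tlr7, Tlr9, Mavs and Myd88 r with the interferon score ran from 0.0667 (Myd88) to 0.414 (Tlr9), with adjusted permutation p-values from 0.114 to 0.778.

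The array spread was followed by Tlr3 at r = 0.928 (permutation p = 1e-05, adjusted 3.6e-05; rho 0.914, permutation p = 1e-05, adjusted 6e-05), by Mavs at 0.908 (permutation p = 1e-05, adjusted 3.6e-05; rho 0.901, permutation p = 1e-05, adjusted 6e-05) and by Tlr7 at 0.877 (permutation p = 1e-05, adjusted 3.6e-05; rho 0.83, permutation p = 3e-05, adjusted 0.000135). Ddx58 gave 0.768 (permutation p = 6e-05, adjusted 0.000154; rho 0.722, permutation p = 0.00059, adjusted 0.00165), Ifih1 0.678 (permutation p = 0.00107, adjusted 0.00205; rho 0.71, permutation p = 0.00052, adjusted 0.00165) and Myd88 0.676 (permutation p = 0.00114, adjusted 0.00205; rho 0.692, permutation p = 0.00098, adjusted 0.00194). For Dhx58, Zbp1 and Tlr9 r was 0.229, -0.143 and 0.0753, with adjusted permutation p-values of 0.424 to 0.778.

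With group means subtracted the spread gave r = 0.911 for Tlr3, 0.881 for Mavs, 0.879 for Tlr7, 0.731 for Ddx58, 0.595 for Ifih1 and 0.578 for Myd88. With replicate 4 of p19Arf and of p19Arf+IFNbeta left out, the 2 most distant from the median spread, the pooled r became 0.927, 0.925, 0.79, 0.69, 0.541 and 0.68 in the same order. After quantile normalization, which gives every array the same spread of values, the levels of Tlr3, Tlr7 and Mavs still followed the original spread at r = 0.912, 0.869 and 0.818, while Myd88 gave 0.225.

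**Figure D4:**
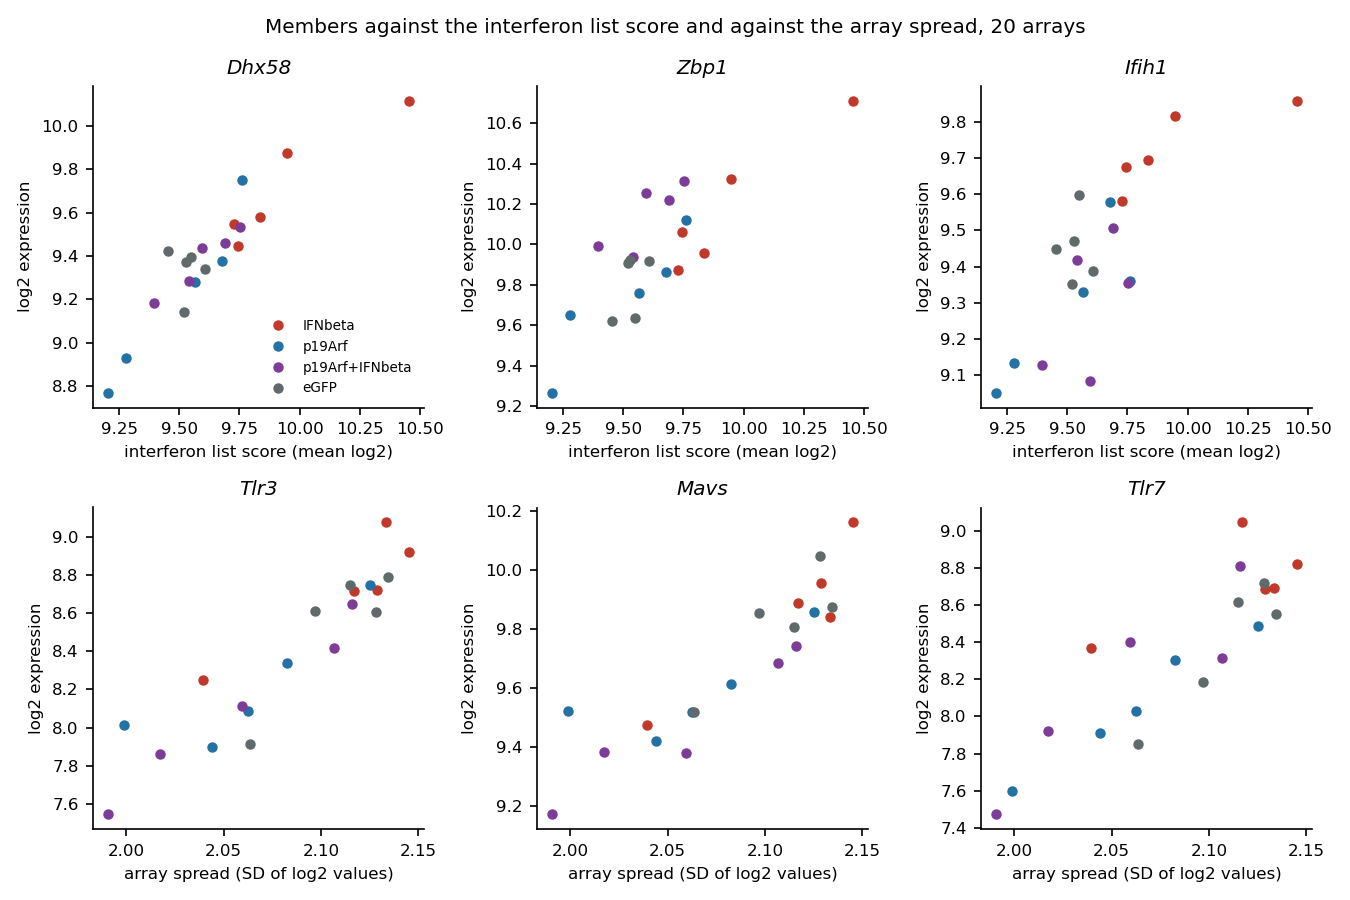
Log2 expression (vertical axes) on each of the 20 arrays (points, coloured by vector group) against the interferon list score for Dhx58, Zbp1 and Ifih1 (upper row) and against the array spread for Tlr3, Mavs and Tlr7 (lower row). Dhx58 follows the score at r = 0.929 and Tlr3 the spread at r = 0.928.

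Likeness between the genes was described by the correlation of their deviations from the group means over the 20 arrays, which share those arrays and their spread. Of the 36 pairs, Tlr3 and Mavs were most alike (0.864), followed by Tlr3 and Tlr7 (0.844), Ifih1 and Ddx58 (0.832), and Dhx58 and Zbp1 (0.819). Ddx58 stood between the patterns, at 0.819 with Tlr3 but 0.371 with Dhx58. Zbp1 and Mavs had the lowest value (-0.368), and Tlr9 was at or below 0.326 with each of the other 8.

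**Figure D5:**
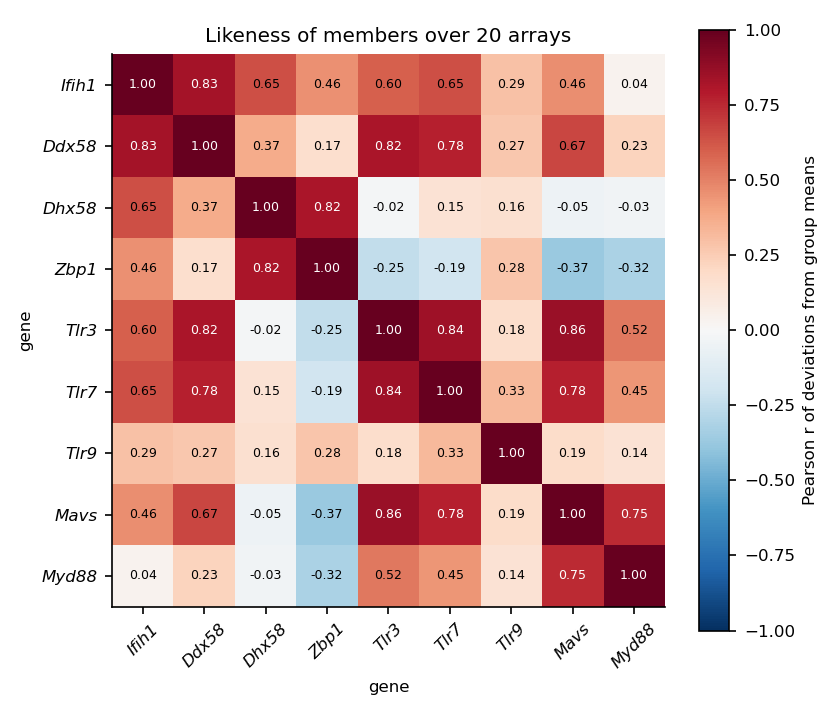
Correlation of deviations from group means over 20 arrays for each pair of the 9 genes (colour scale from -1 to 1, values printed in the cells). The cell of Tlr3 and Mavs holds 0.86 and that of Zbp1 and Mavs -0.37.

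Among all named genes, by the same measure over the 20 arrays, those most like Dhx58 were Irf7 (0.883), the transcription factor that amplifies interferon production, and Oas3 (0.877) and Oasl2 (0.873) of the oligoadenylate synthetase family. Zbp1 was nearest to Oasl2 (0.907), Oas3 (0.900) and Parp14 (0.884). Ddx58 was nearest to the helicase gene Ascc3 (0.924), Parp12 (0.915) and Morc3 (0.914). Ifih1 was nearest to Lpin2 (0.907), a phosphatidate phosphatase, Pcgf5 (0.890) and Txnrd1 (0.887), the thioredoxin reductase.

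The genes most like Tlr3 were Pmpcb (0.969), a subunit of the mitochondrial processing peptidase, Exosc1 (0.968), of the RNA exosome, and Ubr7 (0.967). Those most like Tlr7 were Mcur1 (0.940), Ahcyl2 (0.939) and Acbd3 (0.932). Mavs was nearest to Capzb (0.961), an actin capping protein, Trpc4ap (0.959) and Ostm1 (0.954), and Myd88 to Poldip3 (0.974), Babam1 (0.939) and Dera (0.933). Tlr9 was nearest to Tmem86a (0.894), Psap (0.828), the precursor of lysosomal saposins, and Sdc3 (0.821), a syndecan.

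Genes that act with the receptors were examined in 5 lists, and none passed the adjusted threshold in any vector group against eGFP. Of 17 regulators of RIG-I-like receptors, 6 had a higher mean in IFNbeta (median difference -0.02), 6 in p19Arf (-0.10) and 5 in p19Arf+IFNbeta (-0.11). Ddx60, a helicase linked to RIG-I signalling, was at 9.11 ± 0.40 in IFNbeta and 8.59 ± 0.15 in eGFP, and Trim25, the ubiquitin ligase that activates RIG-I, at 10.25 ± 0.20 in IFNbeta and 9.94 ± 0.06 in eGFP (SD, n = 5 each). Pcbp2, which promotes the breakdown of Mavs, differed from eGFP by -0.30 in p19Arf and -0.39 in p19Arf+IFNbeta (SE 0.14 each), Atg12 by -0.25 (SE 0.12) in p19Arf and Tax1bp1 by -0.35 (SE 0.14) in p19Arf+IFNbeta.

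Of 16 kinases, scaffolds and interferon regulatory factors, 14 had a higher mean in IFNbeta (median 0.07), 9 in p19Arf (0.02) and 9 in p19Arf+IFNbeta (0.10). Irf7 was at 10.37 ± 0.50 in IFNbeta and 9.82 ± 0.16 in eGFP, and Irf5, a factor activated downstream of Myd88, at 9.37 ± 0.12 in IFNbeta and 9.18 ± 0.12 in eGFP (SD, n = 5 each). Tank, an adaptor of the kinase Tbk1, differed from eGFP by -0.52 (SE 0.20) and Rela by -0.19 (SE 0.10) in p19Arf. Tbkbp1, another adaptor of Tbk1, differed by 0.46 (SE 0.18) and Ikbkb, an activating kinase of NF-kB, by 0.35 (SE 0.14) in p19Arf+IFNbeta.

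Of 20 genes of the endosomal Toll-like receptor pathway, 16 had a higher mean in IFNbeta (median 0.09), 5 in p19Arf (-0.14) and 6 in p19Arf+IFNbeta (-0.11). The cathepsin gene Ctsk had a lower mean in IFNbeta, at 10.60 ± 0.27 against 11.31 ± 0.11 in eGFP (SD, n = 5 each), and Irak3, an inhibitor of Toll-like receptor signalling, differed by 0.28 (SE 0.12). In p19Arf, Lrrc59 differed by -0.29 and Ticam1, the adaptor of Tlr3, by -0.23 (SE 0.11 each). In p19Arf+IFNbeta, Irak2, a kinase of the Myd88 complex, was at 9.26 ± 0.17 against 8.76 ± 0.22 in eGFP and Slc15a3, an endolysosomal peptide transporter, at 9.97 ± 0.19 against 9.54 ± 0.19 (SD, n = 5 each; adjusted p 0.234 for both).

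Of 16 genes of the pathway of cGAS, the cytosolic DNA sensor, and STING, 12 had a higher mean in IFNbeta (median 0.03), 4 in p19Arf (-0.10) and 8 in p19Arf+IFNbeta (-0.002). Samhd1, which depletes nucleotides needed by viruses, differed from eGFP by 0.21 (SE 0.12) and Ifi35 by 0.19 (SE 0.10) in IFNbeta. In p19Arf, Sting1 differed by -0.17 (SE 0.10) and Banf1, which coats cytosolic DNA, by -0.41 (SE 0.21). In p19Arf+IFNbeta, Tmed2 differed by -0.44 (SE 0.19) and Trim56 by 0.27 (SE 0.13). Of 12 partners of Zbp1 and effectors of RNA duplexes, 8, 2 and 4 had a higher mean in IFNbeta, p19Arf and p19Arf+IFNbeta. Eif2ak2, the kinase PKR that halts translation, differed by 0.19 and Pycard by 0.18 in IFNbeta (SE 0.13 each). Casp8 differed by -0.23 (SE 0.09) and Casp1 by -0.37 (SE 0.19) in p19Arf. The inflammasome gene Nlrp3 differed by 0.42 (SE 0.16) and Casp6 by -0.43 (SE 0.19) in p19Arf+IFNbeta.

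Markers of leukocytes that carry these receptors were read beside them. The score of 13 macrophage and monocyte markers ran from 10.22 to 10.70 in IFNbeta, 9.98 to 10.62 in p19Arf, 9.82 to 10.67 in p19Arf+IFNbeta and 10.32 to 10.66 in eGFP, and the score of 9 plasmacytoid dendritic cell markers from 7.19 to 7.47, 7.23 to 7.60, 7.25 to 7.52 and 7.25 to 7.496 in that order. The score of 8 B cell markers ran from 6.54 to 6.74 in IFNbeta, 6.57 to 7.83 in p19Arf, 6.59 to 6.89 in p19Arf+IFNbeta and 6.60 to 7.27 in eGFP. All 4 groups overlapped in each of these scores. Mean scores of neutrophil markers were 7.81, 7.77, 8.03 and 7.75 in IFNbeta, p19Arf, p19Arf+IFNbeta and eGFP. In the same order those of conventional dendritic cell markers were 7.94, 7.88, 7.81 and 7.94, of T cell markers 7.89, 7.79, 7.99 and 7.72, and of NK cell markers 6.42, 6.35, 6.44 and 6.32. Endothelial markers gave 8.40, 8.19, 8.35 and 8.34, and fibroblast and matrix genes 9.69, 9.68, 9.97 and 9.65. Skeletal muscle markers ran from 7.38 to 9.60, 7.37 to 9.01, 7.46 to 9.22 and 7.36 to 8.09 in these groups. The part of these cell types in the receptor levels was not tested.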

How the data were processed

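RNA from the tumors was hybridised to 1-colour Affymetrix arrays, 20 in all. The deposited table holds log2 values of 35556 probe sets, which the authors had summarised and normalized. Base 2 was inferred from their range (2.33 to 14.69). Per the submitters' processing notes the software was Affymetrix Expression Console and GCOS; no source used here gives the summarisation method. No normalization was added. Probe sets were named by the platform annotation, with symbols updated to GRCm38.p6; 21789 had 1 symbol, 1621 had several and 12146 were not listed. Where a gene had several, the probe set of highest mean stood for it, and each of the 9 genes had 1. Scores are means of log2 values over a list.

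One mean per group was fitted to 19938 genes with limma 3.58.1 (R 4.3.3, eBayes, 16 residual degrees of freedom), with no covariate, for 8 contrasts. Tests were 2-sided, and p-values were adjusted over all genes by the Benjamini-Hochberg method (threshold 0.05). The code was tested on simulated data. Relations used 100000 permutations. The number of arrays limits the precision. The 9 genes and the 18 lists, of which 218 of 238 members were measured, were chosen with earlier results of these data known. Named besides the 9 were, of each pathway list, the 2 genes with the smallest unadjusted p in each vector group against eGFP, and for each of the 9 the 3 genes with the most similar deviations from group means, predicted genes left out. Alternatives were quantile normalization, median centring, a filter on low means, the mean over probe sets, trended and robust moderation, array weights, the array spread as a covariate, the replicate number as a block, an exact permutation test, and leaving out each array. Leaving out the 5 arrays of lowest spread, and the recount of overlaps, were added after the data had been seen.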

Additional observations from a re-analysis of the deposited data

Results flagged for a closer look

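Of 40 groups of 5 arrays (the 9 genes and the interferon list score, each in 4 groups), 1 held an array far from the other 4, where chance gives about 1 in 20. Tlr3 stood at 7.91 on the array of eGFP replicate 1, against 8.61 to 8.79 on the other eGFP arrays, a gap of 0.789 of the whole range. That array had the lowest spread of the eGFP group, 2.06 against 2.10 to 2.13.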

How the results depend on the processing

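Of 72 differences (9 genes in 8 comparisons), 22 changed sign under at least 1 setting. None of the 72 had passed the threshold in the limma fit. In p19Arf+IFNbeta against eGFP the array spread as a covariate gave 0.0012 for Ddx58, 0.17 for Tlr7 and 0.0016 for Myd88, and quantile normalization 0.0040 for Myd88. In p19Arf against eGFP the covariate gave 0.020 for Tlr3 and 0.019 for Tlr7, quantile normalization 0.0016 for Zbp1, and median centring and array weights -0.030 and -0.015 for Tlr9. Against IFNbeta, p19Arf+IFNbeta gave 0.088 for Zbp1 after quantile normalization and 0.087 with array weights, and -0.019 for Tlr9 after median centring. Against p19Arf it gave -0.00045 for Ddx58 with array weights. Without the 5 arrays of lowest spread the signs also turned for Zbp1 against IFNbeta (0.10), Tlr3 against p19Arf (0.0053), Tlr7 against eGFP (0.12), Mavs with against without IFNbeta (0.040) and the interaction of Dhx58 (0.0063) and Myd88 (-0.013). The cause was not tested.

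Leaving out 1 array at a time turned the sign of differences near 0. In p19Arf+IFNbeta against p19Arf the range was -0.052 to 0.080 for Ifih1, -0.055 to 0.14 for Ddx58, -0.23 to 0.045 for Tlr3 and -0.038 to 0.30 for Tlr7. Against IFNbeta it was -0.12 to 0.090 for Zbp1 and -0.035 to 0.080 for Tlr9, and against eGFP -0.0042 to 0.093 for Dhx58. In p19Arf against eGFP it was -0.17 to 0.045 for Zbp1 and -0.067 to 0.055 for Tlr9. In IFNbeta against eGFP it was -0.031 to 0.14 for Mavs and -0.018 to 0.15 for Myd88. With against without IFNbeta it was -0.026 to 0.12 for Tlr3 and -0.073 to 0.014 for Mavs, and for the interaction -0.087 to 0.16 for Zbp1, -0.037 to 0.090 for Tlr9 and -0.062 to 0.11 for Myd88.

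Counts over all 19938 genes at the adjusted threshold depended on the setting. Array weights gave 5 in IFNbeta against eGFP, 166 in p19Arf+IFNbeta against eGFP, 1730 in p19Arf+IFNbeta against IFNbeta (4 of the 9 genes), 4495 in IFNbeta against p19Arf (8 of the 9) and 12 with against without IFNbeta. In p19Arf+IFNbeta against IFNbeta median centring and the filter on low means gave 1 each. In IFNbeta against p19Arf, with 5 in the limma fit, quantile normalization, the covariate and the removal of the 5 arrays gave 0, the filter 1 and the replicate block 1. Without the 5 arrays there was 1 gene in IFNbeta against eGFP and 3 in p19Arf+IFNbeta against eGFP. Leaving out 1 array gave 0 to 84 genes in p19Arf+IFNbeta against eGFP (84 without eGFP replicate 1), 0 to 2351 in p19Arf+IFNbeta against IFNbeta (2351, with 4 of the 9, without IFNbeta replicate 3) and 0 to 28 in IFNbeta against p19Arf (28, with 2 of the 9, without p19Arf replicate 1). With 1 array left out, the number of the 9 without overlap ran from 2 to 4 in IFNbeta against eGFP. It did so too in p19Arf+IFNbeta against IFNbeta and in IFNbeta against p19Arf. With all arrays it was 2 in each, against 0.552%, 0.782% and 0.757% of all genes. Leaving out an array can only narrow the range of a group, so the number could not fall below 2. Where it was 4, the share of all genes was 0.727%, 9.62% and, in the last comparison, 6.43% or 1.95%. After quantile normalization the number was 1 in IFNbeta against eGFP (0.466% of all genes), 0 in p19Arf+IFNbeta against eGFP and 1 in IFNbeta against p19Arf. After median centring it was 1 (0.517% of all genes) and 0 in the first 2. For the numbers without a share beside them, the share of all genes was not counted. The replicate numbers did not pair the arrays (same-numbered arrays correlated from -0.624 to 0.657 in their deviations), and with the number as a block 0 of the 9 genes passed in any comparison. The exact permutation test, whose smallest p is 0.00794, was run on the 9 genes and not over all genes, so its count of 16 of 54 unadjusted p under 0.05 has no share of all genes beside it; by limma that share was 2.79% to 25.8%. The number of arrays, 5 per group, limits what could be resolved.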

Other observations

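Toll-like receptors of the cell surface and their adaptors, which detect bacterial products and signal partly through Myd88, gave 8 of 11 genes with a higher mean in IFNbeta than in eGFP (median difference 0.07), 4 of 11 in p19Arf (-0.07) and 6 of 11 in p19Arf+IFNbeta (0.08), and none passed the adjusted threshold in limma. Tlr6 and Cd180 differed from eGFP by 0.21 (SE 0.12) and 0.24 (SE 0.21) in IFNbeta. Tirap, a bridging adaptor of Tlr2 and Tlr4, was at 8.76 ± 0.14 in p19Arf against 9.14 ± 0.20 in eGFP, and Ly96, the co-receptor of Tlr4, at 7.34 ± 0.40 against 8.44 ± 0.80 (SD, n = 5 each). In p19Arf+IFNbeta, Tlr4 differed from eGFP by -0.44 (SE 0.20) and Tlr2 by 0.21 (SE 0.09).

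The array of p19Arf replicate 5 held the lowest level of the 20 arrays for Ifih1 (9.05), Ddx58 (9.96), Dhx58 (8.77) and Zbp1 (9.26), and the lowest interferon list score (9.20). The array of IFNbeta replicate 3 held the highest level of Ifih1 (9.86), Dhx58 (10.12) and Zbp1 (10.71) and the highest interferon list score (10.46), but the lowest level of its group for Tlr3 (8.25), Tlr7 (8.37), Mavs (9.47) and Myd88 (9.99). Among the p19Arf arrays, replicate 2 was highest for Dhx58 (9.75) and Zbp1 (10.12) and lowest for Tlr3 (7.90) and Mavs (9.42).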
